A study of Mus musculus with 13 samples.

Results

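Small leucine-rich proteoglycans are secreted matrix proteins with a leucine-rich repeat core, and 8 of the 42416 gene identifiers of the series were followed here by symbol, namely Dcn, Lum, Bgn, Fmod, Ogn, Prelp, Aspn and Podn. All 8 passed the filter on low counts. Their mRNA was measured by bulk RNA sequencing of interscapular brown adipose tissue (iBAT), the thermogenic fat depot between the shoulder blades, in 13 libraries of mice. Of these, 8 were labelled iFAXLKO, with the genotype loxP-Axl-loxP Cre+, and 5 were WT controls that carried the same floxed Axl without Cre. Both groups ate a high-fat diet (HFD), lived at room temperature and were given tamoxifen at intervals of 3 weeks, so the drug and the floxed allele were shared. Per the methods of the study, the Cre was Adipoq-CreERT2, a tamoxifen-inducible recombinase driven by an adipocyte promoter in a bacterial artificial chromosome, and mice with 1 Cre allele were compared with Cre-negative mice. A deletion made with it concerns adipocytes, and other cells of the depot keep the floxed gene. The labels give neither age nor sex, and the study describes the mice of this comparison as female littermates. The comparison asked how tissue with and without the inducible deletion differed under HFD.

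These proteoglycans coat collagen fibrils, on which they set fibril diameter and spacing, and several hold growth factors of the TGF-beta family in the matrix. Decorin (Dcn), biglycan (Bgn) and asporin (Aspn) form class I of the family, of which decorin and biglycan carry chondroitin or dermatan sulphate chains. Lumican (Lum), fibromodulin (Fmod) and PRELP (Prelp) belong to class II, whose core proteins often carry keratan sulphate, osteoglycin (Ogn) to class III and podocan (Podn) to class V. In adipose tissue the family is mostly known as a product of fibroblasts and adipocyte progenitors rather than of the mature fat cell.

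On GRCm38 with GENCODE M21, 6 of the 8 genes lie in 3 pairs of neighbours. Dcn (chromosome 10, 97479609 to 97518143, plus strand) is followed at a distance of 47.0 kb by Lum (97565128 to 97572703, plus strand), with no coding gene between them. Aspn (chromosome 13, 49544443 to 49567565, plus strand) and Ogn (49608046 to 49624501, plus strand) are 40.5 kb apart, with the family gene Omd between them. Prelp (chromosome 1, 133910304 to 133921414, minus strand) and Fmod (134037254 to 134048277, plus strand) are 115.8 kb apart and point away from each other. Bgn stands alone on chromosome X (73483602 to 73495933, plus strand) and Podn on chromosome 4 (108014791 to 108096445, minus strand). Of the 3615 exon bases of Prelp, 350 also belong to the antisense gene Gm15851, and Aspn shares 7 exon bases with Cenpp on the opposite strand. Since the strand setting of the counting is not given in the sources used here, reads of such stretches cannot be assigned with certainty.

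Promoters from RefSeq (GRCm38.p6) were found for 6 of the 8 genes, the exceptions being Dcn and Lum. The 100 bases before the transcript start are shown for both neighbour pairs with promoters and for Bgn. Sequences run 5′ to 3′ on the strand of the gene, and capitals mark the motifs searched on both strands, namely the TATA box (TATAAA), the CCAAT box (CCAAT), the GC box (GGGCGG) and the AP-1 site (TGACTCA).
Aspn, chr13:49544343-49544442, plus strand: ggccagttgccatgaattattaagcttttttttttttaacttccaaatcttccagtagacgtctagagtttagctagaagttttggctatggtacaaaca
Ogn, chr13:49607915-49608014, plus strand: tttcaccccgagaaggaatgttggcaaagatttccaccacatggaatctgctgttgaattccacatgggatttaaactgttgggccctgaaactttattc
Prelp, chr1:133921402-133921501, minus strand: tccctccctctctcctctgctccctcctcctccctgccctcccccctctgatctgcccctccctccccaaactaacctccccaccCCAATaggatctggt
Fmod, chr1:134037154-134037253, plus strand: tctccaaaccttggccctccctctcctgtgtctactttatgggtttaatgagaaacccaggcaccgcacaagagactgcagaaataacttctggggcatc
Bgn, chrX:73483501-73483600, plus strand: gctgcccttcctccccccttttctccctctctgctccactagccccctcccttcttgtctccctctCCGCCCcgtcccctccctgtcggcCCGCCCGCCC

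The promoter of Bgn held 3 matches to the GC box within these bases, of which the last 2 share a pair of bases, whereas Prelp held a CCAAT box and the other 3 shown held no match there. Over the whole 250 bases before the start, Aspn and Ogn each held the TATA box letters between 173 and 229 bases upstream, and Aspn held a CCAAT box. In 1 of the promoters of Podn, GC box matches lay 202 to 197 and 70 to 65 bases upstream. Of 32851 mouse promoters of the same length, 12.4% held the TATA box, 33.8% the CCAAT box, 32.7% the GC box and 4.5% the AP-1 site, and none of the promoters of the 6 genes held the last. Such matches are descriptions of sequence and say nothing of which factor bound there.

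Across the series, the libraries held between 22.44 and 32.6 M counts, and a count of 0 would allow up to 0.0883 to 0.13 CPM (counts of a gene per M counts of its library, scaled with TMM factors), counting error only. The floxed gene, Axl, was measured at 28.4, 26.9, 26.3, 33.8 and 23.5 CPM in WT replicates 1 to 5 and at 26.5 to 43.9 CPM in the libraries labelled iFAXLKO, with a median of 31.6. Axl was therefore not lower in the libraries labelled iFAXLKO, with 6 of 8 above the WT mean (log2 fold change 0.25, SE 0.13, edgeR adjusted p = 0.699, exact permutation p = 0.0979, 2-sided). The files hold 1 value per gene over all its exons, from RNA of the whole depot, so this value does not test the deletion in adipocytes. The libraries are therefore called by their labels, and every direction below rests on them. Brown adipocyte markers were present in every library, with Ucp1, the uncoupling protein, at 6367 ± 914 CPM (SD, n = 5) in WT and 5599 ± 1121 CPM (SD, n = 8) in the libraries labelled iFAXLKO. Of 13360 genes tested with edgeR, 17 (0.127%) passed an adjusted p of 0.05, and 13 of them were higher in the libraries labelled iFAXLKO.

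None of the 8 proteoglycan genes passed that limit, beside the 0.127% of all genes that did. Lum, Dcn and Aspn had an unadjusted edgeR p under 0.05, all 3 with higher values in the libraries labelled iFAXLKO, a direction in which 3.84% of all genes were at that limit. No member was at it in the opposite direction, where 3.54% of all genes were. The members and the gene lists below were chosen with earlier results of these data known, so such counts are descriptions. The CPM ranges of the groups overlapped for each of the 8 genes, and 0.434% of all genes tested had ranges that did not overlap. The median log2 fold change of the 8 genes was 0.16, with 6 positive and 2 negative, against −0.01 over all genes tested, and the SD of their mean log2 CPM between libraries of a group was 0.15. Of the 13360 genes tested, 6202 had a positive log2 fold change and 7158 a negative one.

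**Figure D1:**
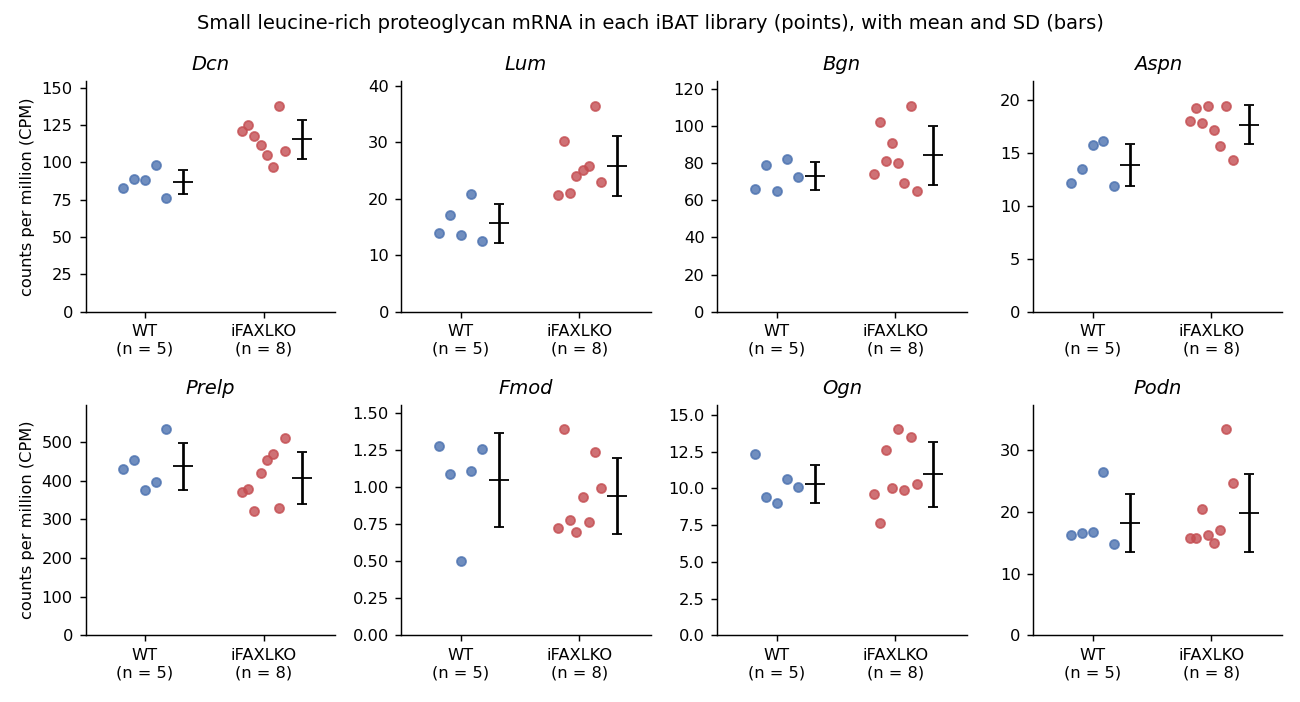
CPM of each gene in every library (points, replicates from left to right), with the mean and SD of each group as bars, on axes that start at 0. For Dcn and Lum 7 of the 8 libraries labelled iFAXLKO lie above the highest WT library, whereas for Prelp none does.

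Lum, whose product lumican regulates the assembly of collagen fibrils in cornea, skin and tendon, had the largest log2 fold change of the set. Its WT libraries gave 13.9, 17.2, 13.6, 20.9 and 12.6 CPM in the order of replicates, and the libraries labelled iFAXLKO gave 20.7 to 36.5 CPM with a median of 24.6. A single library labelled iFAXLKO, replicate 1, lay just under the highest WT library, replicate 4, and the other 7 lay above it. The means were 15.6 ± 3.41 CPM (SD, n = 5) and 25.8 ± 5.27 CPM (SD, n = 8). The log2 fold change was 0.72 (SE 0.15, 95% interval 0.40 to 1.05, edgeR unadjusted p = 0.000228, adjusted p = 0.122), and the exact permutation test gave p = 0.00311. The difference was larger than the spread between libraries as a single value and did not pass after adjustment over all genes tested.

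The call for Lum depended on WT replicate 4 and on the tool. Without that library the log2 fold change was 0.85 and the edgeR adjusted p 0.0371, in a fit where 15 of 13317 genes (0.113%) passed in this direction. With DESeq2 on all libraries the adjusted p was 0.00174, where 0.284% of genes passed in this direction.

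Dcn encodes decorin, which sits on collagen fibrils and binds TGF-beta and several receptor tyrosine kinases. It was measured at 83.0, 89.1, 88.1, 98.3 and 76.3 CPM in WT and at 96.8 to 138 CPM, with a median of 115, in the libraries labelled iFAXLKO. Again 7 of 8 lay above the highest WT library, replicate 4, and the exception was replicate 6. The WT mean was 87.0 ± 8.12 CPM (SD, n = 5) and that of the libraries labelled iFAXLKO 116 ± 13 CPM (SD, n = 8). The log2 fold change was 0.41 (SE 0.09, 95% interval 0.22 to 0.60). Its edgeR unadjusted p was 0.000354 and its adjusted p 0.163, and the exact permutation p was 0.00311. DESeq2 gave an adjusted p of 0.00313, so 2 of the 8 members, Dcn and Lum, passed with that tool, beside 0.284% of all genes in this direction.

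The other class I genes stood between these values and none. Aspn, whose product asporin competes with decorin for collagen and binds TGF-beta, was at 12.2, 13.5, 15.8, 16.2 and 11.9 CPM in WT and at 14.4 to 19.5 CPM, median 18.0, in the libraries labelled iFAXLKO. All 8 of the latter lay above the WT mean and 6 above the highest WT library. Its log2 fold change was 0.35 (SE 0.10, 95% interval 0.13 to 0.56, edgeR unadjusted p = 0.00357, adjusted p = 0.412, exact permutation p = 0.0109).

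Bgn, the gene of biglycan, the closest relative of decorin and a ligand of Toll-like receptors when shed from the matrix, was at 66.3, 79.2, 65.2, 82.4 and 72.5 CPM in WT. In the libraries labelled iFAXLKO it ranged from 65.3 to 111 CPM with a median of 80.5, and only 3 of 8 lay above the highest WT library. Its log2 fold change of 0.20 (SE 0.12, 95% interval −0.06 to 0.46, edgeR adjusted p = 0.751, exact permutation p = 0.182) did not exceed the spread between libraries.

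**Figure D2:**
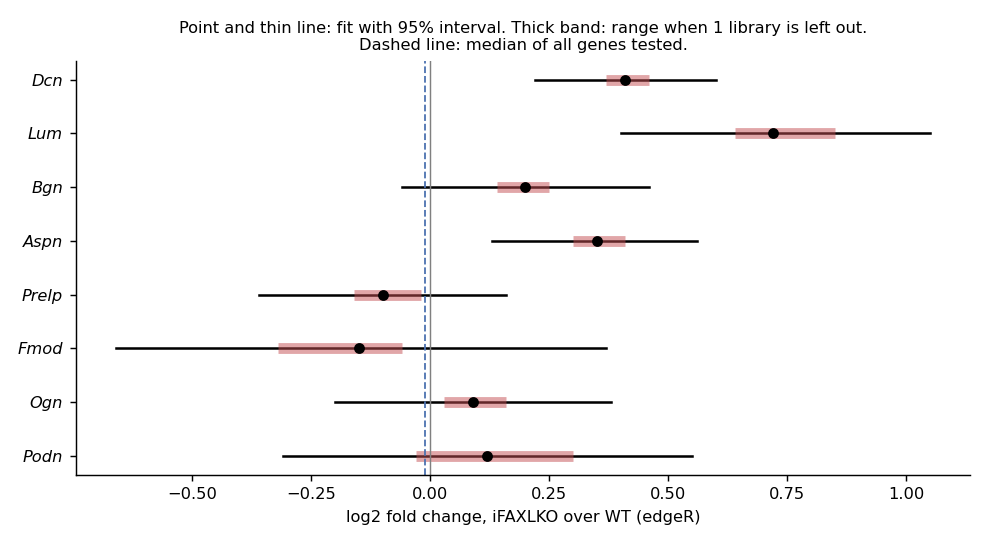
Log2 fold change of each gene in the libraries labelled iFAXLKO over WT from edgeR (point), with its 95% interval (thin line), the range when each library in turn was left out (thick band) and the median of all genes tested (dashed line, −0.01). The intervals of Dcn, Lum and Aspn lie above 0, and those of the other 5 genes include 0.

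Prelp, whose basic end binds heparan sulphate and links basement membranes to collagen, was the most abundant of the set and showed no such difference. It was measured at 430, 453, 376, 396 and 533 CPM in WT and at 323 to 511 CPM, with a median of 401, in the libraries labelled iFAXLKO. The ranges overlapped and no library labelled iFAXLKO exceeded the highest WT library, replicate 5. The log2 fold change was −0.10 (SE 0.12, 95% interval −0.36 to 0.16, edgeR adjusted p = 0.91, exact permutation p = 0.401), an interval that leaves room for a difference in either direction.

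Fmod, the gene of fibromodulin, another regulator of fibril diameter, was near the filter. In CPM without TMM factors, on which the filter was set, it exceeded 1 CPM in 6 libraries, 3 of each group, and it had 17 counts in its lowest library. With TMM factors the WT values were 1.28, 1.09, 0.50, 1.11 and 1.26 CPM, and the others 0.699 to 1.39 CPM with a median of 0.856. The log2 fold change of −0.15 had a 95% interval of −0.66 to 0.37 (SE 0.24, edgeR adjusted p = 0.947), so a change of moderate size in either direction was not detectable at this depth.

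Ogn, whose product osteoglycin (mimecan) also takes part in fibril assembly, was at 12.3, 9.43, 9.03, 10.6 and 10.1 CPM in WT and at 7.62 to 14.0 CPM, median 10.2, in the libraries labelled iFAXLKO. The latter range enclosed the former, and the log2 fold change was 0.09 (SE 0.14, 95% interval −0.20 to 0.38, edgeR adjusted p = 0.945).

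Podn, the gene of podocan, a proteoglycan of the podocyte matrix and the vessel wall, was at 16.3, 16.6, 16.8, 26.5 and 14.7 CPM in WT and at 15.0 to 33.3 CPM, median 16.6, in the libraries labelled iFAXLKO. The medians of both groups were alike to the printed digit, and the higher mean of the libraries labelled iFAXLKO rested on replicate 7. Its log2 fold change was 0.12 (SE 0.20, 95% interval −0.31 to 0.55, edgeR adjusted p = 0.947), and it was −0.03 without that library and 0.30 without WT replicate 4.

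The values were also compared between neighbours on a chromosome. Aspn and Ogn, for which promoters are shown above, had log2 fold changes of 0.35 and 0.09, and their log2 CPM across the 13 libraries, with group means subtracted, had a Pearson r of −0.14. For Prelp and Fmod r was 0.17. For Dcn and Lum, the pair with both genes higher in all 8 libraries labelled iFAXLKO than the WT mean, it was 0.63. These correlations are descriptions over 13 libraries that share scaling and dissection, and genes with few counts such as Fmod carry more counting error.

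Compared per kb of exon, the order of the levels over all libraries ran from Prelp (116 ± 17.8 CPM per kb, SD, n = 13) through Dcn (17.9 ± 3.11), Bgn (13.1 ± 2.31), Lum (8.95 ± 2.79), Aspn (6.91 ± 1.13), Podn (4.49 ± 1.32) and Ogn (4.17 ± 0.724) to Fmod (0.297 ± 0.0828). Each step held in all 13 libraries except those from Lum to Aspn, which held in 12, and from Podn to Ogn, which held in 7, so that the last pair did not differ in level beyond their spread. The 8 genes together came to 169 ± 15.0 CPM per kb (SD, n = 5) in WT and 173 ± 14.8 CPM per kb (SD, n = 8) in the libraries labelled iFAXLKO, a difference smaller than the SD of either group.

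**Figure D3:**
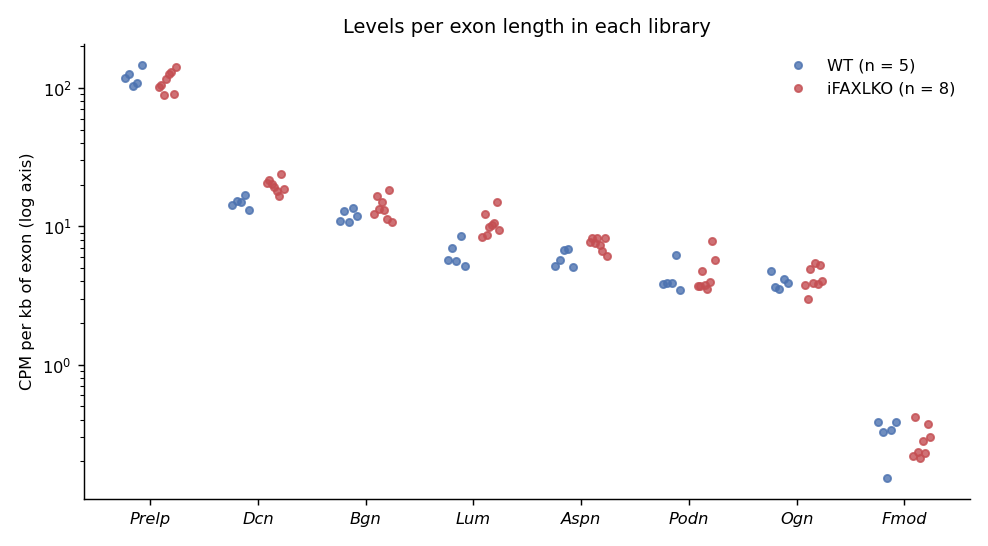
CPM per kb of exon of each gene in every library on a log axis, in order of the mean over 13 libraries, with WT in blue and the libraries labelled iFAXLKO in red. Prelp lies above all other genes in every library, and Podn and Ogn overlap.

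The makeup of the sum was compared next. Prelp made up 71.5% ± 4.22 (SD, n = 5) of the sum per kb in WT and 64.6% ± 6.10 (SD, n = 8) in the libraries labelled iFAXLKO, with ranges of 66.0 to 77.5% and 53.7 to 72%. The share of Lum was 3.81% ± 0.894 in WT and 6.11% ± 1.29 in the libraries labelled iFAXLKO. As a ratio of CPM per kb, Lum to Prelp was 0.0541 ± 0.0157 (SD, n = 5) and 0.0968 ± 0.0308 (SD, n = 8), with 7 of 8 above the highest WT library. Lum to Dcn was 0.426 ± 0.0564 against 0.534 ± 0.0853, with 6 of 8 above. These ratios restate the values of single genes and were given no test.

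Some of the members varied together within groups, and others did not. With group means subtracted, Dcn, Lum, Bgn and Aspn correlated with each other at a Pearson r of 0.49 to 0.75 over the 13 libraries. Prelp ran opposite to Dcn (r = −0.79) and Aspn (r = −0.75), and Ogn had r between −0.14 and 0.36 with every other member. The highest WT library was replicate 4 for 5 of the 8 genes, and the highest library labelled iFAXLKO was replicate 7 for 4 of them, namely Dcn, Lum, Bgn and Podn.

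**Figure D4:**
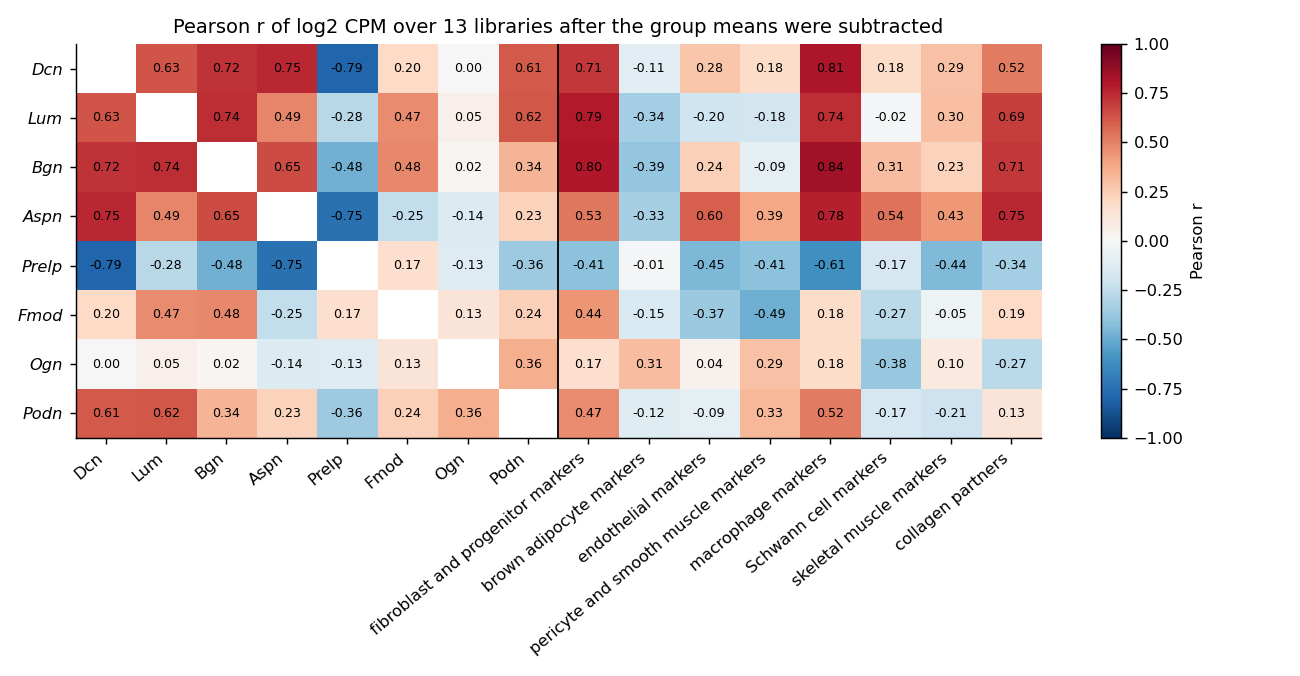
Pearson r of log2 CPM over 13 libraries after subtraction of the group means, among the 8 genes (left of the line) and with the mean log2 CPM of marker lists and of the collagen partners (right of the line). Dcn, Lum, Bgn and Aspn form a block of positive values, Prelp is negative with each of them, and Ogn is near 0 with them.

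Markers of some other cells moved with part of these genes. In bulk tissue, fewer cells of a type and less RNA per cell cannot be told apart. Of 12 non-matrix fibroblast and progenitor markers, 11 had positive log2 fold changes, with a median of 0.47 against −0.01 for all genes tested. Of the 12, 6 were higher at an unadjusted p under 0.05, as were 3.84% of all genes, and none passed after adjustment. This count is a description, since the list was chosen with earlier results of these data known. Their summed level started at 128 CPM, had a median of 159 and reached 200 CPM in WT, and it started at 170 CPM with a median of 212 CPM in the libraries labelled iFAXLKO, with 5 of 8 above the highest WT library, and none of the markers was at 0 throughout. Clec3b, the gene of tetranectin, was at 18.3 ± 4.85 CPM in WT and 26.2 ± 4.16 CPM in the libraries labelled iFAXLKO. Fap, a fibroblast surface protease, was at 3.64 ± 0.513 and 5.35 ± 1.18 CPM, and Cd34, a surface marker of progenitors and vessels, at 23.3 ± 4.84 and 35.2 ± 12 CPM (SD, n = 5 and n = 8).

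The mean log2 CPM of these markers, taken as a score per library, was 2.55 to 3.17 in WT and 3.06 to 3.76 in the libraries labelled iFAXLKO, highest in WT replicate 4 and in replicate 7 labelled iFAXLKO. With group means subtracted, it correlated over 13 libraries with Bgn (r = 0.80), Lum (0.79), Dcn (0.71), Aspn (0.53), Podn (0.47), Fmod (0.44) and Ogn (0.17), and with Prelp at −0.41. With the score as a covariate in edgeR, the log2 fold change was 0.38 for Lum, 0.24 for Dcn and 0.20 for Aspn, each with an adjusted p of 1.0, and the median of the 8 genes was 0.03. The part of fibroblast content in the differences was not tested, since the score itself differed between the groups.

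**Figure D5:**
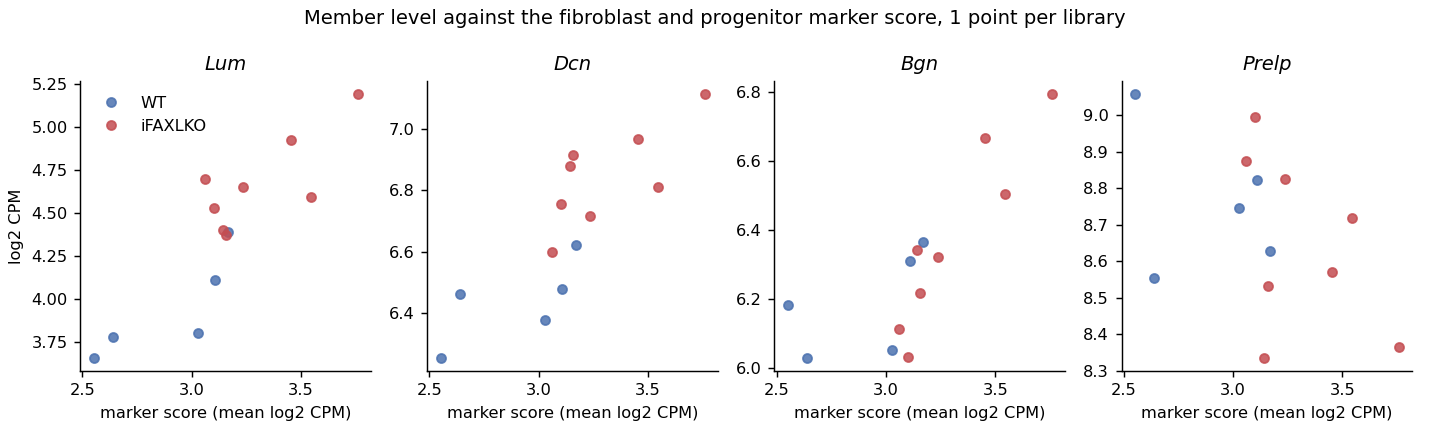
Log2 CPM of Lum, Dcn, Bgn and Prelp (y axes, each with its own range) against the mean log2 CPM of 12 fibroblast and progenitor markers (x axis), 1 point per library, WT in blue and the libraries labelled iFAXLKO in red. Lum, Dcn and Bgn lie higher where the score is higher (r = 0.79, 0.71 and 0.80 with group means subtracted), and Prelp lies lower (r = −0.41).

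Macrophage markers also had higher values. All 8 were at an unadjusted p under 0.05 with higher values in the libraries labelled iFAXLKO, a direction in which 3.84% of all genes were at that limit, and none passed after adjustment. This list too was chosen with earlier results of these data known, so its count is a description. Their median log2 fold change was 0.41, and their summed level was 115 to 167 CPM in WT and 143 to 282 CPM in the others. Csf1r, the receptor of the macrophage growth factor, was at 17.3 ± 2.47 and 22.3 ± 3.73 CPM, Lyz2, the gene of lysozyme, at 49.3 ± 7.96 and 67.1 ± 15.2 CPM and C1qa, a complement subunit, at 21.7 ± 4.89 and 29.4 ± 6.49 CPM (SD, n = 5 and n = 8). Their score correlated with Bgn (r = 0.84), Dcn (0.81), Aspn (0.78), Lum (0.74), Podn (0.52), Fmod (0.18) and Ogn (0.18) over the 13 libraries, and with Prelp at −0.61. The part of this score in the differences was not tested.

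The other marker lists had smaller medians or mixed signs. Endothelial markers had a median log2 fold change of 0.19 (8 of 8 positive, 1 at an unadjusted p under 0.05, Tie1 at 0.22), pericyte and smooth muscle markers one of 0.14 (7 of 7 positive, none at that limit) and Schwann cell markers one of 0.06 (5 of 6 positive, 2 at that limit). Of the brown adipocyte markers, 9 of 10 were negative, with a median of −0.07, and 1, Adipoq, passed after adjustment at a log2 fold change of 0.66 (edgeR adjusted p = 0.0118), the gene around which the Cre transgene was built. Elovl3, a fatty acid elongase of brown fat, had the opposite sign at 202 ± 25.1 CPM (SD, n = 5) in WT and 125 ± 45.3 CPM (SD, n = 8) in the libraries labelled iFAXLKO, none of which lay above the WT mean (log2 fold change −0.69, SE 0.21, edgeR unadjusted p = 0.00572, adjusted p = 0.474). Summed markers of skeletal muscle, a tissue that adjoins the depot, ranged from 60.8 to 2796 CPM in WT and from 56.2 to 4032 CPM in the libraries labelled iFAXLKO. Of these 8 markers, 7 had negative log2 fold changes, with a median of −0.22, and none was at an edgeR unadjusted p under 0.05. The muscle score correlated with the members at r between −0.44 and 0.43. Of 9 tendon and cartilage markers, tissues rich in Fmod and Prelp, 1 was tested (Sox9, log2 fold change −0.47, edgeR adjusted p = 0.696) and Matn1 was at 0 throughout, and of 5 lymphocyte markers none reached the filter.

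Among 9 other genes of the family, Ecm2 and Tsku were tested. Ecm2, a matrix protein with leucine-rich repeats, was at 15.6 ± 2.19 CPM (SD, n = 5) in WT and 19.4 ± 2.50 CPM (SD, n = 8) in the libraries labelled iFAXLKO, all 8 above the WT mean (log2 fold change 0.32, SE 0.11, edgeR unadjusted p = 0.00919, adjusted p = 0.507). Tsku, a secreted protein of liver and fat, was at 14.9 ± 4.12 and 16.0 ± 7.10 CPM. Omd, Optc, Chad, Nyx and Podnl1 had mean levels between 0.00965 and 0.78 CPM in either group, Epyc had fewer than 3 counts in every library and Kera none in any.

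The collagens bound by these proteoglycans were at higher values in the libraries labelled iFAXLKO. All 10 had positive log2 fold changes at an unadjusted p under 0.05, a direction in which 3.84% of all genes were at that limit. Their median was 0.65 beside 0.16 for the 8 members and −0.01 for all genes tested, and none passed after adjustment. The list was chosen with earlier results of these data known, so its count is a description. Col14a1, a fibril-associated collagen and a ligand of decorin, was at 4.34 ± 0.619 CPM in WT and 8.71 ± 2.49 CPM in the libraries labelled iFAXLKO, with all 8 above the highest WT library, as ranges without overlap were seen for 0.434% of all genes (log2 fold change 1.01, SE 0.19, edgeR adjusted p = 0.0517). Col6a2, a chain of the beaded-filament collagen to which biglycan binds, was at 75.7 ± 17.4 and 118 ± 32.5 CPM, and Col5a2, a chain of the collagen that nucleates fibrils, at 25.7 ± 5.54 and 36.0 ± 7.66 CPM (SD, n = 5 and n = 8). The collagen score correlated with Aspn at r = 0.75, with Bgn at 0.71, with Lum at 0.69 and with Dcn at 0.52. With Fmod r was 0.19, with Podn 0.13, with Ogn −0.27 and with Prelp −0.34.

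Enzymes that build the sugar chains gave smaller values. Of 19 tested genes of chondroitin and dermatan sulphate synthesis, 12 were positive with a median log2 fold change of 0.02, beside 6202 positive among all 13360 genes tested. Higher at an edgeR unadjusted p under 0.05 were 2, as were 3.84% of all genes. These were Dsel (0.31), an epimerase of dermatan sulphate, and Csgalnact1 (0.48), which adds the first chondroitin sugar. Dse, the main epimerase, was at 0.23. Of 5 tested genes of keratan sulphate synthesis, 4 were positive with a median of 0.14, and Chst1 (0.26), a keratan sulphate sulphotransferase, was at that limit, whereas Chst2 (0.25) and B4galt4 (0.14) were not. None of these genes passed after adjustment.

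Of 17 tested large, basement membrane and cell surface proteoglycans, 15 were positive with a median log2 fold change of 0.17. At an edgeR unadjusted p under 0.05, 4 were higher and 1 lower, beside 3.84% and 3.54% of all genes. Sdc2, a cell surface heparan sulphate proteoglycan, was at 13.6 ± 1.23 CPM in WT and 17.3 ± 1.46 CPM in the libraries labelled iFAXLKO (log2 fold change 0.35, SE 0.08, edgeR adjusted p = 0.193), with ranges of 12 to 15 and 15.6 to 20.1 CPM that did not overlap, as for 0.434% of all genes. Prg4, the gene of lubricin, had a log2 fold change of 0.52. Gpc1, a membrane-anchored glypican, had the opposite sign, at 35.1 ± 8.79 CPM in WT and 22.1 ± 6.09 CPM in the libraries labelled iFAXLKO (log2 fold change −0.67, SE 0.20, edgeR adjusted p = 0.451).

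Of 8 tested proteases that process or cut these proteins, all were positive with a median log2 fold change of 0.25. Higher at an edgeR unadjusted p under 0.05 were 2 of them, beside 3.84% of all genes. Bmp1, which cleaves the propeptides of collagens and of several members, was at 17.1 ± 2.62 and 23.0 ± 2.98 CPM (log2 fold change 0.43, edgeR adjusted p = 0.31), Mmp2, a gelatinase, at 19.3 ± 4.26 and 25.7 ± 3.45 CPM (0.41, adjusted p = 0.462), and the membrane protease gene Mmp14 at 0.29. Of 14 growth factors and receptors that bind these proteins, 12 were positive with a median of 0.15, and Egfr, a receptor that decorin binds, had a log2 fold change of 0.75 (edgeR adjusted p = 0.628). Wnt11 was at 0.56 and Met, the receptor of hepatocyte growth factor, at 0.27, and neither reached an unadjusted p of 0.05. Of 9 genes raised by TGF-beta in fibroblasts, 8 were positive with a median of 0.31, among them Tgfbi (0.37) and Fn1 (0.46), both at that limit, and Postn (0.21), which was not.

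The genes most like the set were taken by Pearson r over the 13 libraries, with group means subtracted, as a description. With the mean log2 CPM of the 8 members these were Lgi2 (0.88), Adcy5 (0.87), Sdc1 (0.84), C1ra (0.84) and Hacl1 (0.83). The closest gene was Serping1 (0.91), the complement C1 inhibitor, for Dcn, Plpp5 (0.89) for Lum, Rhou (0.92) for Bgn, Alox5ap (0.93) for Aspn, Snx19 (0.94) for Prelp, Limk1 (0.90) for Fmod, Jag2 (0.88) for Ogn and Pnp (0.85) for Podn. No gene was the closest for more than 1 member. These are the highest values among the 12354 tested protein-coding genes, members left out, over only 13 libraries. The highest of so many values is large for unrelated genes too, so they do not show that the genes are regulated together.

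The labels give each library a number, of which they do not say what it stands for. The libraries were split by this number into a lower range (4 libraries labelled iFAXLKO and 2 WT) and an upper one (4 and 3). The cut was placed at a gap in the numbers, but a gap as wide lies within the upper range. The split is therefore a choice, and other cuts were not tested. Within the lower and the upper range the difference of mean log2 CPM was 0.47 and 0.35 for Dcn, 0.62 and 0.83 for Lum, 0.54 and 0.19 for Aspn and 0.25 and 0.12 for Bgn, so these 4 genes kept their sign in both. Fmod (−0.42 and 0.11), Ogn (−0.13 and 0.25) and Prelp (−0.25 and 0.02) did not, and Podn was at 0.04 and 0.19.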

How the data were processed

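Whole-tissue iBAT RNA of 13 libraries was analysed from the deposited files, which hold raw read counts made by the authors, 1 whole number per Ensembl gene. The submitters' processing notes name bcl2fastq 2.20, fastp 0.20.0, STAR 2.7.4a, DESeq2 and the build GRCm38.p6, whereas the methods of the study name Trim Galore and hisat2. The labels give polyadenylated RNA and the methods depletion of ribosomal RNA, which the counts cannot decide between. How the reads were counted, and with which strand setting, is not given in the sources used here.

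Genes above 1 CPM, computed without TMM factors, in at least 5 libraries (13360) were scaled with TMM factors and tested with edgeR 4.0.16 in R 4.3.3 (robust quasi-likelihood F test, 2-sided), with Benjamini-Hochberg adjustment over all genes tested. The standard error is the log2 fold change divided by the square root of F. A prior count of 2 was added for log2 CPM. For single genes, group means of log2 CPM were compared by exact permutation (scipy 1.17.1), whose smallest possible p here is 0.000777. Exon lengths are merged GENCODE M21 exons. The chi-square statistic per degree of freedom between libraries of a group was at least 18.41, so each library counted as 1 replicate. The labels do not say that each library is a separate mouse, so p-values measure the spread between libraries. The fit was tested on simulated data. DESeq2 1.42.0 and limma 3.58.1 served as alternatives.

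The members and gene lists were chosen with earlier results of these data known. The text names all members, Axl, family genes with at least 3 counts in any library, up to 3 genes per other list by smallest p, and the genes most correlated with the members. Some genes that met this rule are not reported here. Matn1, Kera and Epyc were named after their values were seen. The within-range values of library numbers and an unblocked fit on replicates 1 to 5 were added after seeing the data.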

Additional observations from a re-analysis of the deposited data

Results flagged for a closer look

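Of 18 groups of values checked for a library far from the rest (each of the 8 genes and Axl in both groups), 2 held one, where chance gives about 1 in 20. Fmod was at 0.50 CPM in WT replicate 3, with the nearest WT library at 1.09 CPM, a gap of 0.76 of the whole range where 0.71 is the limit. That library had 17 counts of Fmod. Podn was at 26.5 CPM in WT replicate 4, with the nearest WT library at 16.8 CPM, a gap of 0.83 of the range. The same library was the highest WT library for Dcn, Lum, Bgn and Aspn. It was also the highest WT library for the fibroblast, macrophage, endothelial, pericyte and smooth muscle, Schwann cell and collagen scores. For the brown adipocyte score it was the lowest WT library, and for the skeletal muscle score WT replicate 1 was the highest. What sets it apart was not tested.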

How the results depend on the processing

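With edgeR 17 genes were called, with DESeq2 67, with protein-coding genes alone 7, with the fibroblast score as a covariate 9 and with replicates 1 to 5 of each group and no block 11. Members called were 0 in the main analysis, 2 (Dcn and Lum) with DESeq2 and 0 to 1 when each library was left out, the 1 being Lum without WT replicate 4. With the fibroblast score as a covariate Bgn turned to −0.10, Prelp to 0.05 and Podn to −0.18 on the log2 scale. Podn also turned to −0.07 with limma-voom and sample quality weights, to −0.13 with replicates 1 to 5 unblocked, and had a range of −0.03 to 0.30 over the libraries left out. Within the upper range of library numbers Fmod turned to 0.11 and Prelp to 0.02, and within the lower Ogn to −0.13. For these reversals the cause was not tested. The log2 fold changes of Lum, Dcn and Aspn kept their sign in every alternative run.

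The groups share replicate numbers 1 to 5, and the labels do not say what the number stands for. Same-numbered libraries correlated at 0.392, 0.422, 0.188, 0.181 and −0.614 in their deviations from the group means. Values of mixed sign cannot decide whether these libraries are paired, and the main fit had no block. With the replicate block 7 genes and no member were called, and Podn turned to −0.11.

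With 5 and 8 libraries the narrowest 95% interval of a member, that of Dcn, runs from 0.22 to 0.60 on the log2 scale, and Fmod, with 17 to 39 counts, is the least precise.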
